A study of Mus musculus with 10 samples.

Results

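The splicing factors and RNA-binding proteins described here are the clones whose single gene symbol, in the platform's probe annotation, begins as a name of the SR, SF3, snRNP, hnRNP, PRPF, LSM, DDX, DHX, U2AF, PTBP or RBM proteins, together with Son. The rule found 200 clones of 124 genes, among 9866 clones of 7142 genes with a single symbol and 15600 clones in all. Each clone is a spotted cDNA with 2 spots per array. The cells were M-1, an established line from the cortical collecting duct of the mouse kidney, at passages 34 to 36. They were kept in steroid-free medium and then received 100 nM dexamethasone, a synthetic glucocorticoid, for 3 h (treated), or steroid-free medium for the same time (control). RNA of treated cells was read in Cy5 against control RNA in Cy3 on 3 arrays (treated pairs), and control RNA was read in both dyes in 2 pairs (control pairs). All groups share the cell line and the steroid-free medium. The titles set the groups, but for 5 of the 7 channels titled control the treatment field mentions dexamethasone, and each direction below rests on the titles.

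Pre-mRNA splicing is carried out by small nuclear ribonucleoproteins, particles of RNA and protein that recognise the ends of introns and the branch site. SR proteins bind exons and mostly promote the use of nearby splice sites, while hnRNP proteins coat nascent transcripts and often repress such use. DEAD-box and DEAH-box helicases remodel RNA during splicing, export, ribosome assembly and translation, so not every helicase or RBM protein in this group acts in splicing. Many SR and hnRNP genes regulate their own transcripts by splicing, and a cDNA spot reads the sum of the transcripts that share its sequence.

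The control pairs list 31022 and 30942 spots, but the treated pairs list 3778, 3994 and 4002 of 31200. No spot listed on the treated arrays had a centred log2 ratio nearer to 0 than 0.28, 0.48 and 0.26, so the treated values are outlying ratios alone. A clone's mean can lie nearer to 0 where its spots had opposite signs. A clone without a treated value had no measured fold, and a treated mean can be enlarged by this selection. Median intensity in the treated pairs ran from 355 to 880.5 in Cy5 and from 383 to 793.5 in Cy3, and in the control pairs it was 327 and 1076 in Cy5 and 488 and 867 in Cy3. The number of arrays limits the precision, and no label says that replicates came from separate cultures, so the p-values rest on a spread between samples that may be only technical. Treated RNA was always in Cy5, and control pairs were other hybridisations, so dye and array cannot be told apart from the treatment. The spots measure bulk RNA, in which fewer cells of a type and less RNA per cell cannot be told apart. Of 20 collecting duct and epithelial markers 10 have a clone here (Cdh1, Cldn7, Cldn8, Epcam, Gata3, Krt7, Krt8, Krt18, Krt19 and Slc4a1). Aqp2, Aqp3, Scnn1a, Scnn1b, Scnn1g and Hsd11b2 are among those without one. Of the 15 clones 11 or 12 lay above the median of each control pair channel. For leukocyte and endothelial markers the number was 0 of 2 clones in each of these channels, for proximal tubule markers it was 0 of 2, and for fibroblast and matrix markers it was 6 to 9 of 14.

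**Figure D1:**
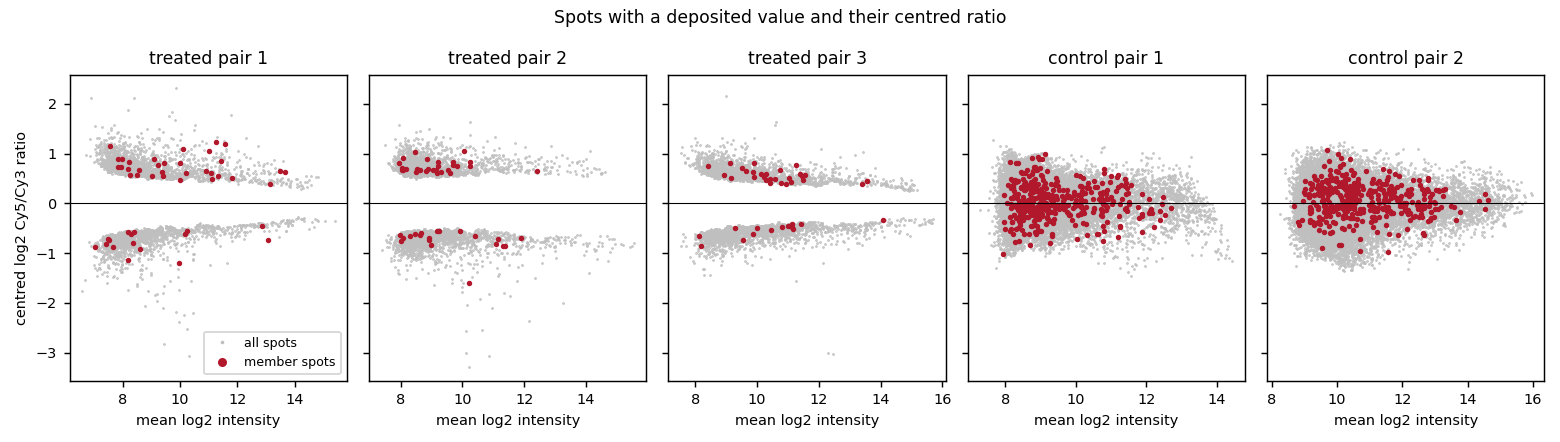
Centred log2 Cy5/Cy3 ratio (vertical axis) against mean log2 intensity (horizontal axis) for each spot with a deposited value, in the 3 treated pairs and the 2 control pairs, with member spots in red. The treated pairs hold no spot with a ratio near 0 and 141 member spots in all, while the control pairs hold nearly every spot.

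Dexamethasone-treated cells gave no member clone that passed the test. Of the 200 clones, 94 had a value on at least 1 treated array (47%, against 51.8% of all clones), and 106 had none. On 2 or 3 arrays 25 had a value (12.5%, against 13.7%), and on all 3 arrays 4 (2%, against 1.38%). The 4 clones valued in all 5 pairs belonged to Son, Ddx19b, Rbm26 and Ddx50. The limma comparison of treated with control pairs, fitted on the 213 clones valued in all pairs and adjusted by Benjamini-Hochberg over them, called 0 of these 4 higher and 0 lower. Over all 213 clones it called 0 higher (0.0%) and 1 lower (0.469%), with 0.05 as the threshold. Before adjustment 2 of the 4 passed that threshold as higher and 1 as lower, where 10.3% of the 213 were higher and 12.2% lower. All 213 clones were admitted by outlying ratios on every treated array, which can raise these unadjusted shares, so no conclusion is drawn from them. The wider fit that follows admitted clones on 1 outlying treated ratio, which can raise its unadjusted shares. Of its 94 member clones 69 had a value on 1 treated array alone, so their own spread could come from the control pairs alone. Over the 8080 clones with a value in any treated pair, limma called 0 of 94 member clones in either direction, against 0.0% of all clones higher and 0.0124% lower. Before adjustment that fit had 15 of the 94 past the threshold as higher and 9 as lower (16% and 9.57%), beside 16.4% and 15.8% of all clones.

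Son, a large nuclear speckle protein and splicing cofactor, had the highest mean ratio of the 4 clones, 0.70 ± 0.12 (SD, n = 3), although Ddx19b was higher on the first treated array. Its clone 2678 stood at 0.58, 0.81 and 0.72 in the treated pairs and at -0.23 and 0.05 in the control pairs (log2 Cy5/Cy3). The treated ratios lay above both control ratios. By limma the difference was 0.79 (standard error 0.21, adjusted p = 0.212), higher in 3 of 3 treated pairs. Its treated Cy5 channels read 429, 263 and 1249.5 against 309, 229 and 722 in the Cy3 control channels of the same arrays, and the control pairs read 427 and 1045.5 in Cy5 against 624 and 801.5 in Cy3. Scaled on the 213 clones, Cy5 was lower in treated than in control pairs by a difference of -0.22 and Cy3 by -0.77 (log2), so the higher ratio lay in a lower Cy3 reading and the Cy5 channels alone gave the opposite sign. Of the other Son clones, 10593 was listed once, at 0.54 against -0.14 in 1 control pair, and clones 6525 and 8874 were not listed.

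Ddx19b, a helicase that acts in mRNA export at the nuclear pore, was also higher in ratio. Clone 2670 stood at 0.68, 0.69 and 0.60 in the treated pairs and at 0.25 and -0.11 in the control pairs, with no overlap. The limma difference was 0.58 (standard error 0.22, adjusted p = 0.212). Its treated Cy5 channels read 460, 531 and 2845 against 308, 418 and 1884.5 in Cy3, while the control pairs read 492 and 1295.5 in Cy5 against 523 and 1312.5 in Cy3. The Cy5 channels alone gave a difference of 0.28, the same direction. Cy3 differed by -0.24, so part of the higher ratio lay in a lower Cy3 reading. The other Ddx19b clone, 70, was not listed.

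Rbm26, an RNA-binding protein with zinc finger and RRM domains, had lower ratios at clone 3118, with -0.71, -0.70 and -0.74 in the treated pairs against 0.14 and -0.18 in the control pairs. The groups did not overlap, and the SD of the treated ratios was 0.02 (n = 3). The limma difference was -0.70 (standard error 0.21, adjusted p = 0.212). The treated Cy5 channels read 238, 171 and 608 against 426.5, 423 and 934 in Cy3, and the control pairs read 258.5 and 895.5 in Cy5 against 367 and 741 in Cy3. Cy5 alone gave -0.59, and Cy3 differed by 0.24. The other Rbm26 clones went other ways, with clone 12792 at 0.76 in 1 treated pair, from both spots, against -0.10 and -0.27 in the control pairs, clone 13665 at -0.91 and 0.67 in 2 treated pairs against -0.41 and 0.16, and clone 6212 not listed. The clones of this gene thus disagreed in direction.

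Ddx50, a nucleolar helicase, had -0.72, -0.64 and -0.75 in the treated pairs and -0.43 and -0.59 in the control pairs at clone 8132. Most of its lower ratio was thus also present where both channels were titled control. The limma difference was -0.20 (standard error 0.20, adjusted p = 0.694). It was -0.89 with the Cy5 channels alone, -0.12 without the first control pair, and 0.37 with each pair scaled to the same spread, so neither its size nor its sign was settled. The Cy3 channels of this clone differed by -0.62, so both dyes read lower in treated pairs. All treated ratios lay beyond both control ratios for 2 of the 4 clones on the higher side and 2 on the lower side, a criterion that 20.7% and 23% of the 213 clones met. Part of the separation of these clones is set by the listing, since the treated pairs hold no spot with a ratio near 0.

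**Figure D2:**
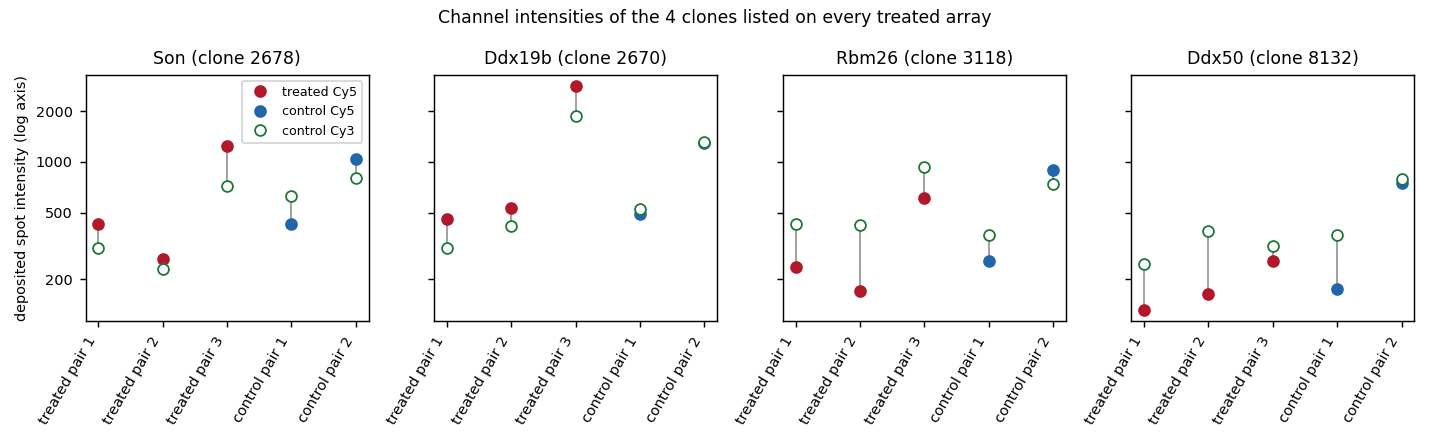
Deposited spot intensity (log axis) of the 4 clones valued in every pair, with Cy5 as filled points (treated or control) and control Cy3 as open circles joined by a line within a pair. For Son and Ddx19b the Cy5 point lies above Cy3 in all 3 treated pairs, and for Rbm26 and Ddx50 it lies below in all 3.

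The promoters of these 4 genes, and of Hnrnpa1, whose 3 clones are described with the hnRNP proteins, are shown because the glucocorticoid receptor binds DNA directly. Each is the 250 bases before the annotated start, from RefSeq on GRCm38.p6, 5′ to 3′ along the gene. Capitals mark the receptor half-site AGAACA or its complement TGTTCT, and the CCAAT box or its complement ATTGG. The first of 2 annotated starts is shown for Ddx19b and Ddx50.
Son (chr16:91647574-91647823, plus strand): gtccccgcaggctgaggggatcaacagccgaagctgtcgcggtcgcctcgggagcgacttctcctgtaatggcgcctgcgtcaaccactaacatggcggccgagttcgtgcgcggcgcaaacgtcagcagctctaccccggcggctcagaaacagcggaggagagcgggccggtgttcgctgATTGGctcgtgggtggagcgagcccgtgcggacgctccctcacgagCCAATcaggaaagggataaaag
Ddx19b (chr8:111031752-111032001, minus strand): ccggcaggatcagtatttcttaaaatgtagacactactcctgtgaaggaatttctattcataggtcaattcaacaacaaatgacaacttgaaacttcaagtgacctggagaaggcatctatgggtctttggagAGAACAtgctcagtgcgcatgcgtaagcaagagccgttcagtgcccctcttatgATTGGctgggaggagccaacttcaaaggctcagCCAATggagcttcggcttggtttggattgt
Rbm26 (chr14:105177315-105177564, minus strand): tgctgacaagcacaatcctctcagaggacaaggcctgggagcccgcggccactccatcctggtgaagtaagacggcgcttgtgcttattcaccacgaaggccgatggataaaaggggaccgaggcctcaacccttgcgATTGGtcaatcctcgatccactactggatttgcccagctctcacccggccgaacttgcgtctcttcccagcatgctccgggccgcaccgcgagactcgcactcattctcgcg
Ddx50 (chr10:62651219-62651468, minus strand): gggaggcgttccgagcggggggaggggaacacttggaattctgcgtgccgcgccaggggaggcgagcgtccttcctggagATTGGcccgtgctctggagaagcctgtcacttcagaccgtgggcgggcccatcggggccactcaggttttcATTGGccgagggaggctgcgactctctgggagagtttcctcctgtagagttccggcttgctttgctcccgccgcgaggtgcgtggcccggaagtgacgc
Hnrnpa1 (chr15:103240147-103240396, plus strand): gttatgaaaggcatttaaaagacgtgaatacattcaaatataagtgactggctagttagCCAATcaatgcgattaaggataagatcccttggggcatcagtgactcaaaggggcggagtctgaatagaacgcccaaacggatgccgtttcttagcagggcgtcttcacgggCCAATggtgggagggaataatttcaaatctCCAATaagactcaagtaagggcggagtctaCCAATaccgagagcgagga
Only the Ddx19b window among these 5 held a half-site, AGAACA at position -117 from the start. Over all member genes, 110 of 124 matched the table, with 135 windows, and 9 of them held a half-site on either strand (6.67%), against 16.1% of 32851 windows of all genes. The full motif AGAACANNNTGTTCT was in 0 member windows and in 3 of the 32851. A CCAAT box on either strand was in 43% of member windows and 33.8% of all. The median G+C content was 60% in member windows and 52.4% in all, and its part in these shares was not tested. A match is a description of letters and not a binding site.

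By family, hnRNP proteins leaned most to one side. Over the 3 treated arrays, 21 hnRNP spots were listed higher and 2 lower, whereas the control pairs, after a like selection (the 3994 spots farthest from the centre for their intensity), had 7 higher and 8 lower. SR proteins, counted here with Son, had 15 higher and 5 lower in the treated pairs (11.9% and 3.97% of the spots read). Among the higher spots, Son clone 2678 gave 1, 1 and 2 by array and Son clone 10593 gave 1, and 0 Son clones were listed lower. In the control pairs the family had 5 higher and 6 lower (5.95% and 7.14%). The control pairs differed, with 0 higher and 4 lower in the first and 5 higher and 2 lower in the second, which leaned the same way as the treated pairs. Proteins of 3′ splice site recognition had 3 higher and 8 lower in the treated pairs (3.57% and 9.52%). In the control pairs they had 6 higher and 2 lower (10.7% and 3.57%). All 3 higher treated spots were on the last array, without which the count was 0 higher and 5 lower, and the control pairs had 2 and 4 higher and 2 and 0 lower. Across all members 90 spots were listed higher and 51 lower in the treated pairs, which are 7.5% and 4.25% of the spots read, where all clones had 6.36% and 6.22%. The control pairs gave 61 higher and 40 lower, 7.62% and 5% of member spots, where all clones had 6.17% and 6.63%. The excess of higher over lower member spots was therefore also seen without treatment between the channels. Of the listed member spots 63.8% ± 4.12 (SD over arrays, n = 3) were higher in the treated pairs, and 60.4% in the control pairs. By clone, 64 of 200 were listed higher on at least 1 treated array (32%, against 29.1% of all clones) and 38 lower (19%, against 27.9%). On 2 or more arrays 11 were higher (5.5%, against 4.61%) and 6 lower (3%, against 4.64%), and on all 3 arrays 2 were higher (1%, against 0.346%) and 2 lower (1%, against 0.391%). By array, 32, 29 and 29 member spots of 400 were higher in the treated pairs (8%, 7.25% and 7.25%, beside 6.38%, 6.17% and 6.53% of all spots). Lower were 16, 20 and 15 (4%, 5% and 3.75%, beside 5.73%, 6.63% and 6.3%). In the control pairs 33 and 28 were higher (8.25% and 7%, beside 6.5% and 5.84%) and 26 and 14 lower (6.5% and 3.5%, beside 6.3% and 6.96%).

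**Figure D3:**
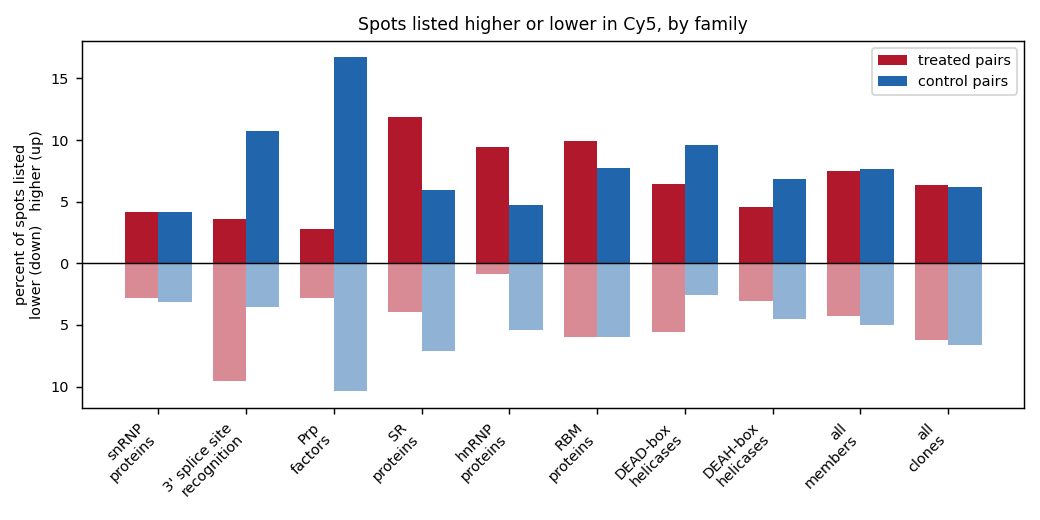
Percent of the spots of each family listed higher (dark, upward) or lower (light, downward) in Cy5, in the 3 treated pairs (red) and, after a like selection, in the 2 control pairs (blue). hnRNP proteins reached 9.46% higher and 0.901% lower in the treated pairs, against 4.73% and 5.41% in the control pairs, while all members and all clones differed little between the sets.

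Among the snRNP proteins (15 genes, 24 clones), most of which form the Sm and LSm rings and other parts of the particles, 6 spots were listed higher and 4 lower in the treated pairs, and 4 higher and 3 lower in the control pairs. These were 4.17% and 2.78% of the spots read in the treated pairs and 4.17% and 3.12% in the control pairs. Without the last treated array the count was 3 higher and 4 lower. The names also took in Lsm14a and Lsm14b, cytoplasmic proteins of mRNA repression that are no part of these particles, with 1 of 5 clones listed (Lsm14b clone 200, at 0.48 in 1 pair). Snrpb2, a protein of the U2 particle, was the 1 gene listed on 2 arrays, and its clone 2092 went both ways, with -0.86 and 0.39 in the treated pairs against 0.05 and 0.32 in the control pairs. Both spots gave the lower value on the second array, and its other 2 clones were not listed. Snrpd2, an Sm ring protein, stood at 0.42 from both spots of clone 1565 on 1 array, beside 0.28 and 0.21 in the control pairs. The 17 other clones, 7 of 24 being listed, included all clones of Snrpa1, Snrpb, Snrpc and Snrpd1.

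Among the proteins of branch site and 3′ splice site recognition (9 genes, 14 clones), the SF3 subunits hold the U2 particle on the intron. Sf3b3 clone 12187 stood at -0.74 and -0.63 in 2 treated pairs against -0.35 and 0.26 in the control pairs. Sf3a2 clone 9 stood at -0.77, from both spots, and -0.42 against 0.36 and -0.16. Both genes lay below their control pairs in ratio. Sf3b1, the subunit that contacts the branch site, went both ways at clone 1283, with -0.87 and 0.53 against -0.14 and -0.37. The other clone of Sf3b1 and that of Sf3b3 were not listed. Of the 9 genes 2 were listed higher alone, 4 lower alone, 1 both ways and 2 not at all.

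The Prp factors (9 genes, 12 clones) belong to the particles that form the active spliceosome. In the treated pairs 2 spots were listed higher and 2 lower of 72 read (2.78% each), where all clones had 6.36% and 6.22%. The control pairs had 8 higher and 5 lower of 48 (16.7% and 10.4%), where all clones had 6.17% and 6.63%. Prpf38b stood at 0.73 and 0.58 against -0.15 and 0.34, and Prpf31, which binds the U4 particle, stood at -0.62 and -0.47 against 0.42 and -0.33. These were values of 1 clone each (4700 and 5236), and 1 of 2 Prpf38b clones and 2 of 3 Prpf31 clones were not listed. Prpf8, Prpf6, Prpf4, Prpf3 and Prpf19 had no listed clone.

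Of the 10 genes of the SR family (21 clones, Son included), 4 were listed higher alone, 3 lower alone and 2 both ways, and Srsf6 was not listed. Srsf1, an SR protein that promotes exon inclusion, had 0.83 and 0.61 in 2 treated pairs at clone 7996, against 0.22 and -0.02 in the control pairs. The 3 Srsf2 clones did not go one way. Clone 3548 stood at 0.47 and 1.06 against 0.27 and 0.15, clone 3077 at 0.52 against 0.14 and 0.66, and clone 6843 at -0.88 and 0.63 against 0.08 and 0.39. The single treated value of clone 3077 lay between its control values. Srsf4 stood at 0.78 from both spots of clone 2210 on the second array, against 0.07 and 0.09, and its other clone was not listed. The genes listed lower alone each had 1 value. Srsf3 stood at -0.65 (clone 713) against -0.14 and -0.09, and Srsf10 at -0.48 (clone 3089) against -0.11 and 0.24. Srsf12 stood at -0.75 (clone 1714) against -0.10 and -0.60. Without any 1 of the treated arrays the family had from 9 to 12 spots higher and 3 or 4 lower.

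Hnrnpa1, which binds exons and introns and often blocks splice sites, had all of its 3 clones listed higher. On the first treated array both spots of each clone were listed, at 1.04 (clone 6732), 0.95 (clone 7057) and 1.12 (clone 13075). The control pairs stood at -0.02 and 0.28, at -0.07 and -0.02, and at 0.47 and 0.27 for the same clones. On this array the treated Cy5 channel read 3757, 1490 and 3795.5 and the control Cy3 channel 1832.5, 765 and 1719.5. None of the 3 clones was listed on another treated array, so their higher ratio rests on 1 array. Genes with many near-identical copies in the genome can share signal on a cDNA spot, so the Hnrnpa1 and Hnrnpa3 values may include such copies.

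Hnrnpa3, a close relative, had 4 of 5 clones listed higher and 0 lower. Clones 109 and 4887 stood at 0.64 and 0.63 on the first treated array, clone 7672 at 0.83 on the second and clone 12276 at 0.45 on the last. Their control pairs stood at 0.06 and 0.11, at -0.07 and 0.30, at -0.20 and -0.54, and at 0.37 and 0.21. Clone 10228 was not listed. Hnrnpc, which binds uridine tracts, had clone 8225 at 0.88 and 0.71 against 0.42 and 0.37 and clone 9126 at 0.82 in 1 pair against 0.07 and 0.30. Its clone 1 was not listed. Ptbp3, a relative of the polypyrimidine tract binding protein, had clones 13 and 3928 at 0.89 and 0.65 on the first array, against control pairs of 0.24 and 0.07 and of 0.09 and -0.57. The lower hnRNP spots belonged to Hnrnpdl (-0.50, clone 619, against 0.28 and 0.51) and to Ptbp2 (-0.62, clone 9402, against -0.15 and -0.10), and the other Ptbp2 clone, 9996, stood at 0.69.

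The hnRNP count was uneven among arrays. The first treated array had 14 spots higher and 0 lower, the second 6 and 1, and the third 1 and 1, so without the first array the count was 7 higher and 2 lower. Among the brightest 25% of the listed spots of the first array, 57.6% of all listed spots were higher, against 11 of 11 hnRNP spots. Over all its listed spots 52.7% were higher. On the second array the brightest spots were 42% higher, beside 48.2% of all listed spots there, and the bright hnRNP spots were 4 of 4 higher. On the last array these shares were 48.1% and 50.9%, with 1 of 1 hnRNP spots higher. The part of brightness in the hnRNP count was not tested. By gene, 8 hnRNP genes were listed higher alone, 1 lower alone, 1 both ways and 9 not at all, the last including Hnrnpa2b1, Hnrnpl, Hnrnpm and Hnrnpr. Of the 37 hnRNP clones, listed or not, 1 was listed higher on 2 or more arrays, where 719 of all 15600 clones were (4.61%). On any treated array 18 of the 37 were listed. The lean to one side thus lay mostly on the first array, where both spots of all 3 Hnrnpa1 clones were listed higher.

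**Figure D4:**
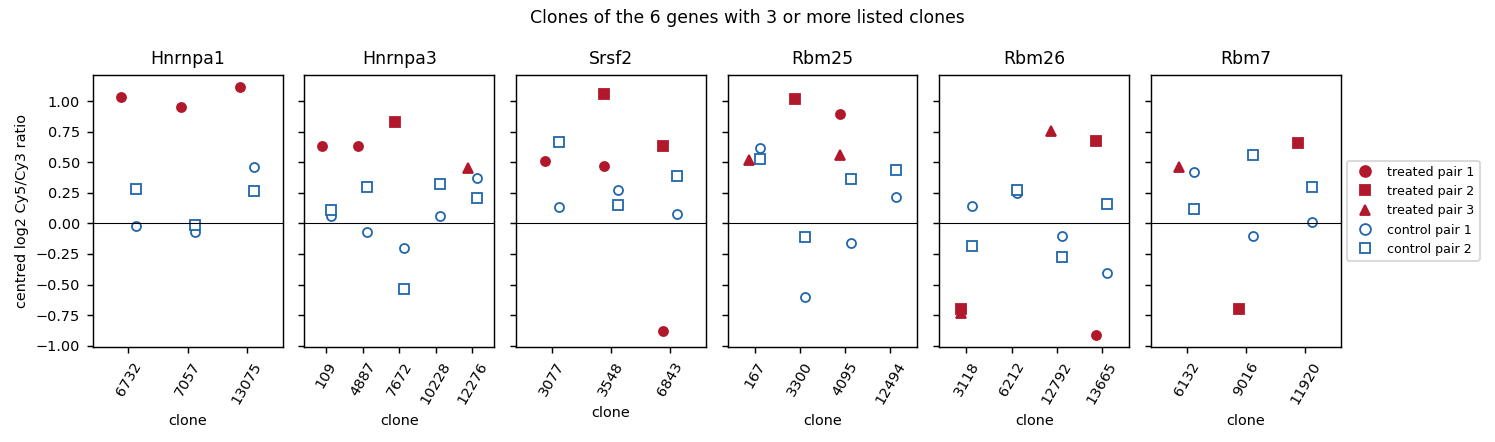
Centred log2 Cy5/Cy3 ratio (vertical axis) of each clone of the 6 genes with 3 or more listed clones, with treated pairs as filled red marks and control pairs as open blue marks. All listed Hnrnpa1, Hnrnpa3 and Rbm25 clones lie above 0 in the treated pairs, while the clones of Srsf2, Rbm26 and Rbm7 lie on both sides.

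The RBM proteins (27 genes, 42 clones) share RNA recognition motifs and differ in role. They had 25 spots listed higher and 15 lower in the treated pairs (9.92% and 5.95% of 252 read). The control pairs had 13 higher and 10 lower (7.74% and 5.95% of 168). Without the last treated array the count was 13 higher and 10 lower. Rbm25, a regulator of alternative splicing, had 3 of 4 clones listed, all higher. Clone 4095 stood at 0.90 and 0.56 against -0.16 and 0.36, and clone 3300 at 1.02 against -0.60 and -0.11. Clone 167 stood at 0.52, from both spots, but its control pairs stood at 0.62 and 0.53, so its ratio was as high with no treatment between the channels. Rbm48 clone 1601 stood at 0.66 and 0.41 against -0.11 and 0.22, and Rbm18 clone 1477 at 0.70 and 0.49 against 0.22 and 0.71. The Rbm18 clone overlapped its control pairs, and the other Rbm18 clone, 9857, stood at 0.68 in 1 pair against 0.10 and 0.15. Rbm7, which in human cells delivers nuclear transcripts to the RNA exosome, had 3 clones listed, each in 1 pair. Clone 6132 stood at 0.46 against 0.42 and 0.12, so 1 control pair was nearly as high. Clone 11920 stood at 0.66 against 0.01 and 0.30, and clone 9016 at -0.70 against -0.11 and 0.56. Rbm34 clone 4882 went both ways, at -0.82 and 0.74 against -0.37 and -0.18, and its other clone was not listed. Both Rbm14 clones were listed lower, each in 1 pair. Clone 3617 stood at -0.60 against 0.10 and -0.05. Clone 4557 stood at -0.61 against -0.72 and 0.19, so 1 control pair was lower still. The lowest RBM value was that of Rbm17, a splicing factor, at -1.19 on the first array (clone 5896, 1 spot), against -0.08 and -0.06, and the other Rbm17 clone was not listed.

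The DEAD-box helicases (26 genes, 39 clones) had 15 spots higher and 13 lower in the treated pairs (6.41% and 5.56% of 234 read). The control pairs had 15 higher and 4 lower (9.62% and 2.56% of 156). Without the last treated array the count was 10 higher and 10 lower. Besides Ddx19b and Ddx50, Ddx46, the relative of yeast Prp5 that acts at the branch site, stood at -1.13 and -0.66 (clone 3719) against -0.36 and 0.34. Ddx52 clone 12879 stood at 0.82 and 0.62, the second from both spots, against 0.15 and 0.02, but its other clone, 9106, stood at -0.56 and 0.65. Ddx41, a helicase of the spliceosome, stood at 0.77 and 0.58 (clone 7870) beside control pairs of 0.54 and 0.73, which overlapped. Ddx4, a helicase of germ cells, stood at 1.16 and -0.74 (clone 10013). The lowest ratio of any member was that of Ddx27, a nucleolar helicase, at -1.60 on the second array from 1 spot (clone 14648, against 0.02 and -0.29), and its other clone was not listed. The helicases Ddx3x, Ddx17, Ddx39a and Ddx39b had no listed clone, and Ddx5 had 1 of 4 listed.

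Of the DEAH-box helicases (9 genes, 11 clones), which release the spliceosome or unwind RNA, 4 clones were listed and 3 spots were higher and 2 lower, or 1 and 1 without the second array. Dhx30 was the 1 gene on 2 arrays, at 0.82 and -0.53 (clone 9133) against 0.16 and 0.12, and so went both ways. Dhx8, which frees spliced mRNA, stood at 0.75 (clone 999) and Dhx38 at 0.41 (clone 2863), each in 1 pair, while Dhx36, a helicase that unwinds G-quadruplexes, stood at -0.56 (clone 11825) in 1 pair against -0.20 and 0.14. The other 2 Dhx36 clones were not listed. Dhx15 and Dhx16 were not listed.

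**Figure D5:**
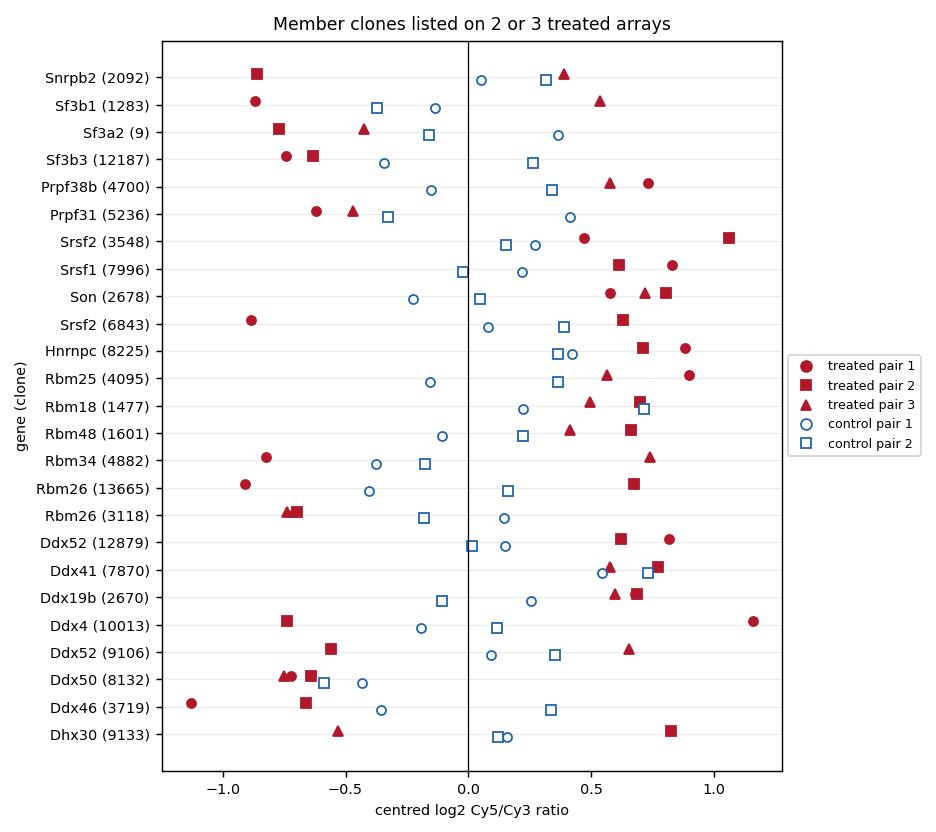
Centred log2 Cy5/Cy3 ratio (horizontal axis) of the 25 member clones listed on 2 or 3 treated arrays, with treated pairs as filled red marks and control pairs as open blue marks, ordered by family. In 17 of the clones the treated marks lie on 1 side of 0, and in 8 they lie on both sides.

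Arrays agreed in direction for 17 of the 25 member clones listed on 2 or 3 arrays (68%), where all clones gave 62.7% of 2140. Between single arrays the same-direction share of members ran from 72.7% to 77.8%, over 9 to 13 clones, and that of the control pairs was 73.3% of 15 clones. Over all clones these shares ran from 62.3% to 67.3%, and 62.5% in the control pairs. Members listed on 2 control pairs thus went one way about as often as those listed on 2 treated pairs, though no test of these shares was made. Most treated values rest on 1 spot, since 105 of the 123 values of a member clone on a treated array came from 1 listed spot and 18 from both. Where both were listed they had the same direction in 18 of 18 cases, beside 86.6%, 84.9% and 92.9% of such cases among all clones on the 3 arrays. In the control pairs member spots did so in 6 of 8 and 5 of 5 cases. Of the 14 genes with 2 or more listed clones, 8 had all listed clones in 1 direction (57.1%), against 41.9% of 657 genes in all.

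Control pairs show the members with nearly complete values, as 199 of 200 clones had a ratio in both. Member ratios ran from -0.72 to 0.70 with a median of 0.03 in the first control pair and from -0.73 to 0.82 with a median of 0.07 in the second, beside medians of 0.00 for all clones in both. The limma test of Cy5 against Cy3, over 15561 clones, called 0 members higher and 0 lower, against 0.0321% and 0.289% of all clones. Before adjustment 11 members passed the threshold as higher and 6 as lower (5.53% and 3.02%), beside 3.63% and 5.04% of all clones. Ddx41 clone 7870 (0.64, adjusted p = 0.0949 by limma), Dhx36 clone 3650 (-0.59, adjusted p = 0.152) and Rbm25 clone 167 (0.57, adjusted p = 0.188) came nearest to the threshold. The standard error was the same for each member clone in this test (0.1873). Its p-values thus follow the mean control ratio and not the clone's own spread between pairs. Ddx41 and Rbm25 clone 167 were also listed higher on treated arrays. Duplicate spots of a member clone differed by a median of 0.21 and 0.24 (log2) in the control pairs.

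Other genes of splicing and mRNA maturation, a list of 106 names outside the rule, had 85 genes with 133 clones. They had 47 spots listed higher and 47 lower in the treated pairs (5.89% each of 798 read), where all clones had 6.36% and 6.22%. The control pairs had 46 higher and 36 lower (8.65% and 6.77% of 532), where all clones had 6.17% and 6.63%. The lean varied by array, with 26 higher and 37 lower without the first treated array and 35 higher and 29 lower without the last. Clones listed higher on 2 or more treated arrays numbered 2 and clones listed lower 4, of 133, where 4.61% and 4.64% of all clones were. Srrm1, a splicing coactivator with SR repeats, had clone 6571 at 0.86 and 0.53 against 0.05 and 0.44. Thoc7, of the export complex THO, had clone 6612 at 0.68 and 0.61 against 0.03 and 0.33. On the lower side Rnps1, which binds the exon junction complex, had clone 12399 at -0.95 and -0.63 against 0.47 and -0.34. Rbmx, an hnRNP protein whose symbol falls outside the rule, stood at -0.74 and -0.63 (clone 5653) against 0.06 and 0.25. Ncbp2, of the cap binding complex, had clone 14973 at -0.65 and -0.53 against 0.04 and -0.19. The export factor Nxt1 had clone 905 at -0.45, -0.94 and -0.66 against -0.22 and 0.33. Its other clone, 2532, was listed on the last array alone, at -0.48 against -0.34 and 0.07. The other clones of Srrm1, Thoc7, Rnps1 and Ncbp2 were not listed. Neither limma fit called a clone of this list.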

How the data were processed

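The 200 member clones were read in 10 channels, which form 3 treated pairs and 2 control pairs by the array or control number in their titles. The joined control channels share their blank spots (178 of 178 and 258 of 258, against 3 between numbers). The authors deposited linear spot intensities, quantified with Imagene, per the series' design text. How background and dye bias were treated, and which rule chose the spots of the treated pairs, is not given in the sources used here. Log2 Cy5/Cy3 ratios were centred by lowess in control pairs (statsmodels 0.14.6, span 0.2) and on the smoothed midpoint of the widest gap between listed ratios in treated pairs (windows of 150 spots, span 0.3). Listed spots of a clone were averaged. Limma 3.58.1 in R 4.3.3 (statmod 1.5.0) compared treated with control pairs on clones valued in all 5, with Benjamini-Hochberg adjustment, and was tested on simulated data. The simulated ratios given to limma were complete, so that check does not cover the selection of outlying ratios in the treated pairs. Symbols came from the platform annotation, and all 200 matched RefSeq by gene ID. Of all clones 274 carry several symbols and 5460 none here. Members, families and lists were chosen with earlier results of these data known. Clones were named where they had values in all pairs or were listed one way on 2 or more treated arrays, where they belonged to a gene with 3 or more listed clones, and where they had the highest or lowest mean of their family among clones listed on 2 or more arrays. Others (such as Snrpd2, Srsf4, Hnrnpc clone 9126, Ptbp2, Ptbp3, Rbm17, Ddx27, Dhx8, Dhx36, Dhx38, Lsm14b and the other clones of named genes) were chosen after their values were seen. The same holds for Srsf3, Srsf10, Srsf12 and Rbm14.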

Additional observations from a re-analysis of the deposited data

How the results depend on the processing

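The direction of Ddx19b and Rbm26 held in all 18 alternatives run, but the listing sets part of it, since treated values are outlying ratios alone. The intensity minimum, the wider set of clones, the intensity trend, the unmoderated t and the listed-spot control averages left both differences unchanged. Cy5 alone and no replicate block gave the same value for each clone, so the alternatives were not separate checks. With both control pairs kept, no alternative called a member. Son turned to -0.22 with the Cy5 channels alone and with no replicate block (all 10 channels fitted without their pairing), where the median of all fitted clones was -0.13, and Ddx50 turned to 0.37 with each pair scaled to the same spread. Median centring moved the median of all fitted clones to -0.25, against -0.03 as reported. Over all fitted clones the count called higher was 3 with Cy5 alone and 2 with an intensity trend, and the count called lower was 0 with each pair scaled, Cy5 alone, no replicate block, the pair as a random replicate block and the unmoderated t. With a replicate left out it was 0 to 1. The title numbers do not pair treated with control replicates across arrays, so the block is the array. Keeping clones with both spots listed the same way gave 72.2% of listed member spots higher and 3% of member spots listed, and 1 clone per gene gave 10.3% listed. The percent of listed member spots higher was 62.4% to 66.3% without 1 treated array. The dye test called 0 clones higher and 0 lower with median centring and with no normalisation, against 5 and 45 as reported. An intensity minimum of 200 removed no clone of either fit. Control pairs averaged over the listed spots were an alternative chosen after seeing the data, and it changed no member call. The cause of these changes was not tested. Detection above background is not given, so dim spots cannot be set apart.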
